A study of Mus musculus with 24 samples.

Results

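The receptors for glutamate and GABA, the main excitatory and inhibitory transmitters of the brain, were followed through cuprizone demyelination and treatment with a BTK inhibitor (BTKi) in mouse corpus callosum. The set holds the protein-coding genes named as AMPA (Gria), kainate (Grik), NMDA (Grin), metabotropic glutamate (Grm), GABA-A alpha, beta, gamma and delta (Gabra, Gabrb, Gabrg, Gabrd) and GABA-B (Gabbr) receptor subunits, with Grina, which is no receptor subunit, left out. The 35 genes described were chosen by these names among 54446 gene IDs, of which 21918 are protein-coding. They comprise 4 AMPA, 5 kainate and 7 NMDA receptor subunits, 7 metabotropic glutamate receptors, 10 GABA-A receptor subunits and 2 GABA-B receptor subunits.

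Bulk polyadenylated RNA of the corpus callosum, the main white matter bridge between the hemispheres, had been sequenced in 24 libraries. The groups were Cuprizone BTKi (n = 8), Cuprizone Vehicle (n = 8), Naive BTKi (n = 4) and Naive Vehicle (n = 4). Cuprizone is a copper chelator that kills oligodendrocytes, and the inhibitor of BTK, a kinase of B cells and microglia, was given to some mice once disease had been induced. The naive mice received the inhibitor or its vehicle. Not given in the sources used here are strain, age, compound, dose and treatment times. Whether each library stands for its own animal is not labelled either, so p-values measure only the spread among these samples, part of which may be technical.

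AMPA, kainate and NMDA receptors are cation channels that glutamate opens. Metabotropic glutamate receptors act through G proteins. GABA-A receptors are chloride channels built from alpha, beta and gamma or delta subunits, and GABA-B receptors are G protein-coupled dimers. Neurons express most of these genes, while astrocytes carry Grm3 and oligodendrocyte precursors carry AMPA and kainate receptors. Axons cross the corpus callosum, but most neuronal cell bodies lie in the cortex, hippocampus and striatum around it. In bulk tissue, fewer cells of a type and less RNA per cell cannot be told apart.

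Deposited values were FPKM, that is fragments scaled by gene length and by the library's total fragments. The spacing of the low values implied 2.65e+07 to 3.10e+07 fragments per library. The lowest total was that of Cuprizone BTKi 5, and the next was 2.98e+07. In the shallowest library the receptor genes that were tested rested on about 714 (Grik1) to 47520 fragments (Gria2). Summed levels of 10 general neuronal genes ran from 2581 to 3004 FPKM over the 24 libraries. In cuprizone against naive libraries limma called none of these genes under vehicle (2 of 10 at an unadjusted p under 0.05). Under BTKi none was called either (3 of 10 at an unadjusted p under 0.05). Averaged over vehicle and BTKi, 1 of 10 was called lower (limma adjusted p = 0.0177). Under vehicle, striatal markers were called lower in 9 of 9 and mature oligodendrocyte markers in 7 of 7, with 4 of 9 and 7 of 7 without Naive Vehicle 2. No gene of these marker lists was at 0 in any library.

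Naive Vehicle 2 stood apart from the other libraries. Of the 32 receptor genes tested, 13 had their highest (9) or lowest (4) value of all 24 libraries in it, while the next library had 9. The same count was not made over all genes tested, so it does not set the receptor genes apart from other genes. Grm4 stood at 1.85 times, Grin2d at 1.56 times and Gabra4 at 1.43 times the median of the other 3 Naive Vehicle libraries. Grm2 stood at 0.77 times and Gabra3 at 0.78 times that median. Striatal markers (9 of 9) and mature oligodendrocyte markers (7 of 7) were also highest of 24 there. Their sums were 717 FPKM against 132 to 409 FPKM in the other 23 libraries for the striatal genes, and 4695 against 1064 to 3558 FPKM for the oligodendrocyte genes. Of 8 markers of cortical and hippocampal excitatory neurons, 7 were lowest of 24 in it. A list of 7 genes of thalamic neurons was added after these values were seen, and all 7 were highest in Naive Vehicle 2. Prkcd, a protein kinase C abundant in the thalamus, had 130 FPKM there against 7.39 to 33.3 FPKM in the other 23 libraries. The summed thalamic level was 261 FPKM against 28.6 to 83.2 FPKM. The part of the thalamic and oligodendrocyte markers in the results was not tested, and striatal markers were fitted as a covariate.

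**Figure D1:**
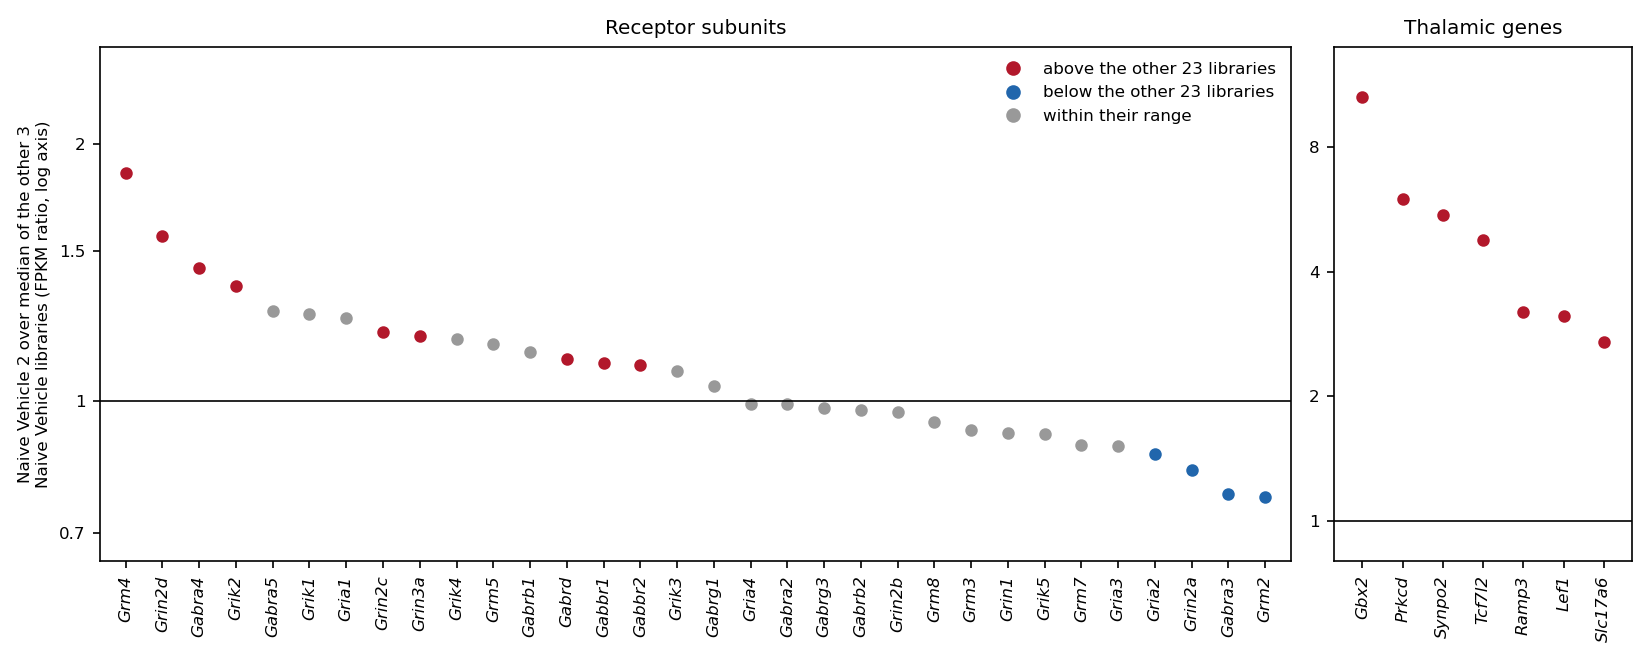
Level in Naive Vehicle 2 divided by the median of the other 3 Naive Vehicle libraries (log axis), for the 32 receptor genes tested (left; red, above all other 23 libraries; blue, below all; grey, within) and for 7 thalamic genes (right). Grm4 stands at 1.85 and Grin2d at 1.56, while Grm2 stands at 0.77.

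Receptor mRNA was abundant in the dissected tissue. Of the 35 genes, 32 reached a mean of 0.5 FPKM and were tested. The median of their means was 15.1 FPKM, against 8.02 FPKM over all 15216 genes tested, and 25 of the 32 lay above that value. The NMDA subunit Grin3b (mean 0.171 FPKM), the cerebellar granule cell subunit Gabra6 (0.0196 FPKM) and the retinal receptor Grm6 (0.00251 FPKM) stayed under the limit. Gabbr1, the ligand-binding GABA-B subunit, had a mean level of 203 FPKM, above 98.5% of the genes tested. Grin1, the obligatory NMDA subunit, averaged 153 FPKM and Gria2 averaged 101 FPKM. Of the 32, 6 averaged at least 50 FPKM, 20 lay between 5 and 50 FPKM and 6 lay under 5 FPKM, the lowest being Gabrg3 at 3.44 FPKM.

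**Figure D2:**
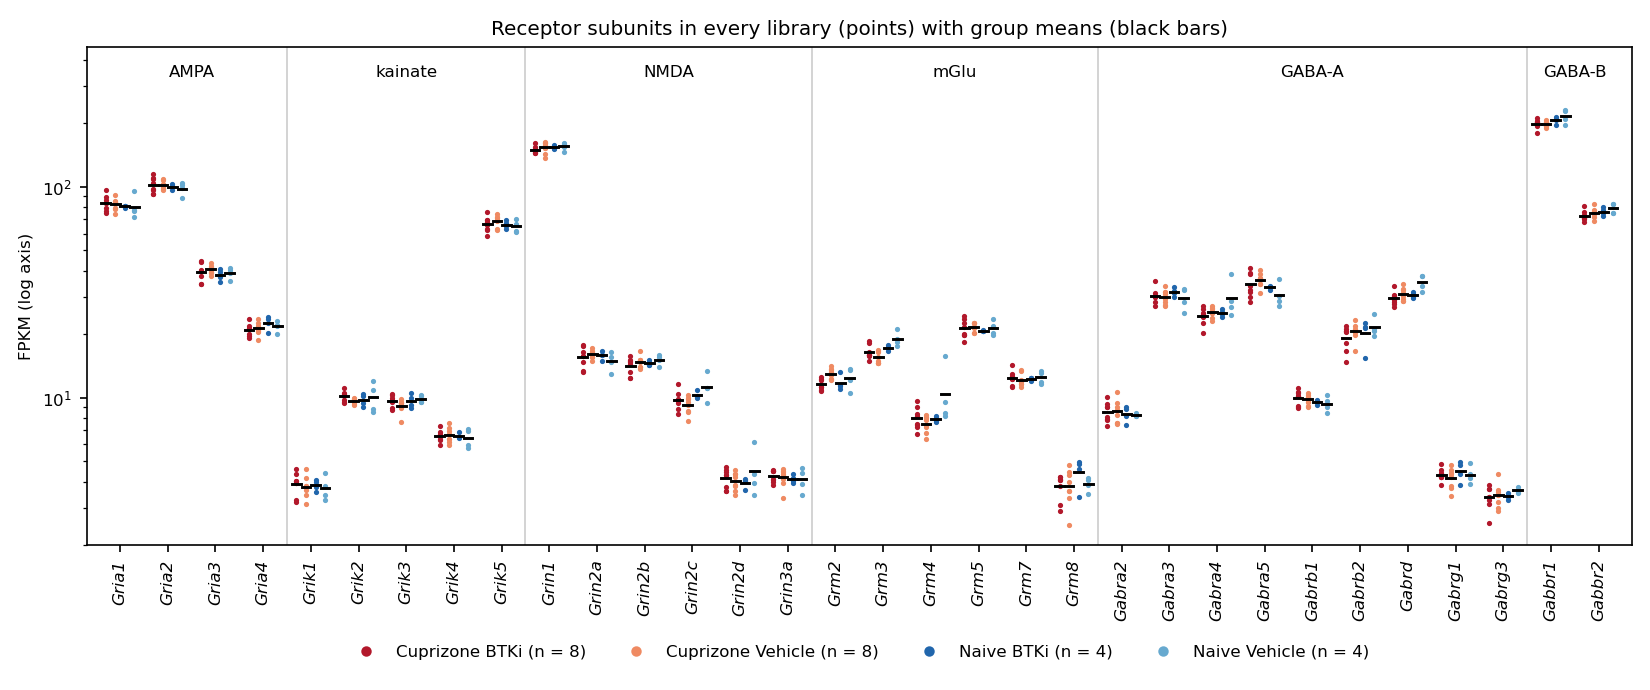
FPKM (log axis) of the 32 receptor genes tested, by receptor class, with 1 point per library, the 4 groups in colour and group means as black bars. The levels run from 3.44 FPKM (Gabrg3, mean of all libraries) to 203 FPKM (Gabbr1), and the groups lie close together for most genes.

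In several classes a few subunits made up most of the mRNA. Gria2, the AMPA subunit that makes the channel impermeable to calcium, gave 36.5% to 43.3% of AMPA FPKM over the 24 libraries, and Gria1 gave 30.8% to 39.7%. Grik5, a high-affinity kainate subunit, gave 64.3% to 72.8% of kainate FPKM. The ratio of Grin1 to the summed GluN2 subunits (Grin2a to Grin2d) ran from 3.09 to 3.87, and that of Gabbr1 to Gabbr2, its signalling partner, from 2.50 to 2.89. The ranges of both ratios are over all 24 libraries.

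Group means of the same gene lay close together. The highest group mean was at most 1.2 times the lowest for 28 of the 32 genes, with a median ratio of 1.08. This ratio was not computed over all genes tested, so it does not set the receptor genes apart. The other 4 were Grm4 (1.39), Grm3 (1.22), Gabra4 (1.22) and Grin2c (1.22). Summed AMPA subunits averaged 247 ± 17.3 FPKM in Cuprizone BTKi, 246 ± 7.38 FPKM in Cuprizone Vehicle, 242 ± 6.89 FPKM in Naive BTKi and 239 ± 3.74 FPKM in Naive Vehicle (SD, n = 8, 8, 4 and 4). These group means spanned less than the largest SD within a group. The same held for summed NMDA subunits, with 198 ± 4.92 FPKM in Cuprizone BTKi, 202 ± 10.5 FPKM in Cuprizone Vehicle, 203 ± 3.34 FPKM in Naive BTKi and 205 ± 5.74 FPKM in Naive Vehicle. It held for kainate subunits too, with 96.9 ± 4.99 FPKM in Cuprizone BTKi, 98.1 ± 3.99 FPKM in Cuprizone Vehicle, 96.0 ± 2.54 FPKM in Naive BTKi and 94.9 ± 4.35 FPKM in Naive Vehicle. It also held for the 10 GABA-A genes described, with 164 ± 10.4 FPKM in Cuprizone BTKi, 169 ± 5.84 FPKM in Cuprizone Vehicle, 167 ± 6.17 FPKM in Naive BTKi and 173 ± 9.98 FPKM in Naive Vehicle. For the metabotropic and GABA-B genes the group means spanned more than the largest SD, and Naive Vehicle had the highest mean. The 7 metabotropic genes described summed to 73.6 ± 4.18 FPKM in Cuprizone BTKi, 73.6 ± 2.31 FPKM in Cuprizone Vehicle, 74.4 ± 1.46 FPKM in Naive BTKi and 79.6 ± 2.38 FPKM in Naive Vehicle. The GABA-B subunits summed to 272 ± 12.8 FPKM in Cuprizone BTKi, 274 ± 8.93 FPKM in Cuprizone Vehicle, 283 ± 10.3 FPKM in Naive BTKi and 295 ± 20.9 FPKM in Naive Vehicle. These sums were not tested.

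Cuprizone Vehicle was compared with Naive Vehicle, which sets cuprizone against naive mice without the inhibitor and does not isolate demyelination. Of the 32 tested, 4 were called lower and none higher. They were the metabotropic receptors Grm3 and Grm4, the NMDA subunit Grin2c and the GABA-A subunit Gabrd. All calls are limma adjusted p-values under 0.05, over the 15216 genes tested. The share called was 12.5%, against 15.0% of all genes in either direction. All 4 calls were lower, against 4.82% of all genes called lower and 10.2% called higher. That split depended on the scaling of the libraries: 1555 genes were higher and 733 lower as deposited, 1229 and 978 after median ratio scaling, and 1205 and 1072 after quantile normalization. Under both of these scalings 6 receptor genes were lower and none higher, with Gabbr1 and Gabra4 added, against 6.43% and 7.05% of all genes lower. Of the 32 changes, 14 were positive and 18 negative, with a median log2 change of -0.03, against 0.03 over all genes tested. An unadjusted p under 0.05 was reached by 7 of 32 (21.9%), against 27.4% of all genes.

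Grm3, the group II metabotropic receptor that astrocytes also express, had the smallest adjusted p. Its levels in Cuprizone Vehicle were 14.7 FPKM at the lowest, 15.2 FPKM at the median and 16.8 FPKM at the highest, against 21.2, 17.5, 18.4 and 18.9 FPKM in Naive Vehicle. The groups did not overlap, and Grm3 was the only one of the 32 of which this was so, while 8.77% of all genes tested did not overlap in either direction and 2.85% did so with cuprizone lower. The log2 change was -0.28 (SE 0.056, 95% interval -0.40 to -0.17, limma adjusted p = 0.000839). The call stood in all 24 fits that left out 1 library, with adjusted p up to 0.00834, and in 11 of 11 other alternatives. Without Naive Vehicle 2 the change was -0.32 (limma adjusted p = 0.0007). Grm3 (ENSMUSG00000003974.6) is a gene of chromosome 5, minus strand, from 9485541 to 9725170 (GENCODE M21, GRCm38).

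Beside Grm3, the summed level of astrocyte markers was higher and that of mature oligodendrocyte markers lower in Cuprizone Vehicle. Of the 6 astrocyte genes limma called 3 higher, Gfap (log2 change 1.85), Aldh1l1 (0.32) and Aldoc (0.24), and 1 lower, Gja1 (-0.23). Without Naive Vehicle 2, 4 were called higher and 0 lower. The 6 genes summed to 723 to 876 FPKM in Cuprizone Vehicle, against 522 to 597 FPKM in Naive Vehicle. The 7 mature oligodendrocyte genes summed to 1064 to 1756 FPKM in Cuprizone Vehicle, against 3339 to 4695 FPKM in Naive Vehicle. Their part in the Grm3 result was not tested.

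Grm2, the other group II receptor, which sits on presynaptic terminals, was not called in this comparison, and it had the smallest adjusted p of the set when BTKi was compared with vehicle in cuprizone mice. Grm3 had the smallest p of the set in cuprizone against naive under vehicle, and Grm2 in BTKi against vehicle in cuprizone mice. For this reason the 250 bases before the RefSeq start of both genes are shown (GRCm38.p6, gene strand, chr9:106656110-106656359 and chr5:9725353-9725602, both on the minus strand). The windows follow RefSeq and do not adjoin the gene bounds of GENCODE M21. Capitals mark TTCAGCACC, the left part of the element bound by the neuronal repressor REST.
Grm2: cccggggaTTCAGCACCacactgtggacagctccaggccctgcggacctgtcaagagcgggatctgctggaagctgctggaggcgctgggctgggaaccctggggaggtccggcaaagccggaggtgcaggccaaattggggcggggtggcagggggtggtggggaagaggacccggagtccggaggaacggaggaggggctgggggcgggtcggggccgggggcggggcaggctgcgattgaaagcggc
Grm3: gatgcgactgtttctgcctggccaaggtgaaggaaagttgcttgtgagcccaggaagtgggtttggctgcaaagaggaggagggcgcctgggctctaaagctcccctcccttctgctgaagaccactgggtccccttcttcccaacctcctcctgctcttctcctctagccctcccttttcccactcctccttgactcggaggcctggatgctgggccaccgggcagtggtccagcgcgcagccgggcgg
The letters were searched on both strands in the 250-base windows of the 26 of 35 receptor genes that matched the promoter table. They were found in 1 of these genes, Grm2, and in 99 of 32851 windows of all genes (0.301%). The Grm2 window holds 16 CG dinucleotides and the Grm3 window 8, against a median of 6 over all windows. A match describes these letters alone, and no match says only that they are not in the window.

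The calls of the other 3 genes each ended without Naive Vehicle 2. Grm4, a group III presynaptic receptor, had 6.40, 7.62 and 8.29 FPKM at the lowest, median and highest in Cuprizone Vehicle, against 8.47, 15.7, 8.14 and 9.49 FPKM in Naive Vehicle. Its groups overlapped through Naive Vehicle 3, and its log2 change was -0.41 (SE 0.12, limma adjusted p = 0.0165), or -0.20 without Naive Vehicle 2 (adjusted p = 0.138). The Grm4 call also ended without the 3 Cuprizone Vehicle libraries lowest in choroid plexus genes (-0.37, adjusted p = 0.0585). The 7 choroid plexus genes summed to 30.9 to 1528 FPKM in Cuprizone Vehicle, against 1162 to 1841 FPKM in Naive Vehicle, with a median log2 change of -1.32. By limma none was called, but 7 of 7 had an unadjusted p under 0.05, against 27.4% of all genes. Their part in the other results was not tested.

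Grin2c, an NMDA subunit typical of cerebellum, thalamus and astrocytes, had 7.73, 9.35 and 10.3 FPKM at the lowest, median and highest in Cuprizone Vehicle, against 11.0, 13.3, 11.2 and 9.47 FPKM in Naive Vehicle. The groups overlapped through Naive Vehicle 4. Its log2 change was -0.27 (SE 0.079, limma adjusted p = 0.0207), and -0.19 without Naive Vehicle 2 (adjusted p = 0.142). Gabrd, the delta subunit of GABA-A receptors outside synapses, had 28.7, 30.8 and 34.7 FPKM in Cuprizone Vehicle, against 33.7, 37.8, 37.7 and 31.8 FPKM in Naive Vehicle. The groups overlapped, and its log2 change was -0.18 (SE 0.057, adjusted p = 0.0316), or -0.15 without Naive Vehicle 2 (adjusted p = 0.139). The call of Gabrd also ended without Naive Vehicle 3 (0.124), Cuprizone Vehicle 4 (0.0556), 5 (0.0557) or 6 (0.0549), and with no filter on low values (0.0621), each value a limma adjusted p. Fitted on the Cuprizone Vehicle and Naive Vehicle libraries alone, Grm4, Grin2c and Gabrd did not pass (adjusted p = 0.0667, 0.0550 and 0.0682). Thalamic and striatal markers were highest in Naive Vehicle 2. With the striatal score as a covariate the log2 changes were -0.23 for Grm4, -0.23 for Grin2c and -0.12 for Gabrd, and none passed (adjusted p = 0.407, 0.203 and 0.413). The part of the thalamic markers in these calls was not tested. Grm4 lies on chromosome 17 from 27422387 to 27521403, Grin2c on chromosome 11 from 115249169 to 115267243 and Gabrd on chromosome 4 from 155384980 to 155398112 (GENCODE M21, GRCm38).

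**Figure D3:**
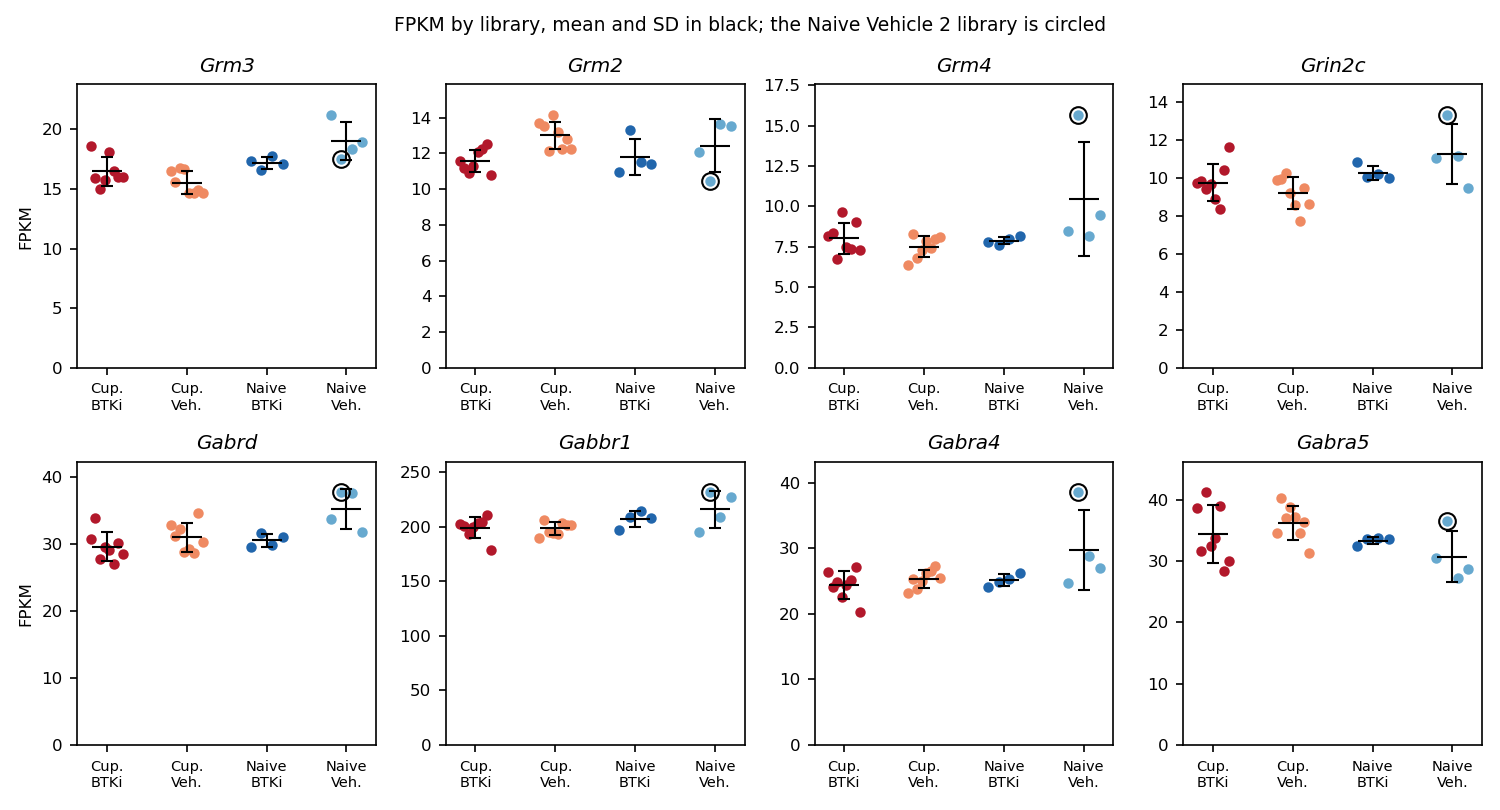
FPKM in each library, with mean and SD per group, for Grm3, Grm2, Grm4, Grin2c, Gabrd, Gabbr1, Gabra4 and Gabra5; Naive Vehicle 2 is circled. The circled point is 15.7 FPKM for Grm4 and 38.6 FPKM for Gabra4, above the other 23 libraries, and it is the lowest Naive Vehicle point for Grm3.

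Without Naive Vehicle 2, 2 receptor genes were called, Grm3 lower and Gabra5 higher, against 12.0% of all genes in either direction and 3.21% lower. Gabra5, an alpha subunit of extrasynaptic GABA-A receptors abundant in hippocampus, had 31.3, 36.7 and 40.2 FPKM at the lowest, median and highest in Cuprizone Vehicle, against 30.5, 36.6, 27.2 and 28.7 FPKM in Naive Vehicle. Naive Vehicle 2 was the only Naive Vehicle library within the cuprizone range. The log2 change of Gabra5 was 0.24 with all libraries (limma adjusted p = 0.0596) and 0.32 without Naive Vehicle 2 (SE 0.087, adjusted p = 0.0132). It was also called without Cuprizone BTKi 3 (0.0428), Cuprizone BTKi 7 (0.0437) or Cuprizone Vehicle 8 (0.0347). About 4.98% of its exon bases overlap Gm9962, and the strand setting of counting was not stated.

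The remaining genes of the largest changes in this comparison did not pass. Gabra4, an alpha subunit paired with delta in thalamus and striatum, had 23.2, 25.3 and 27.3 FPKM at the lowest, median and highest in Cuprizone Vehicle, against 24.7, 38.6, 28.8 and 27.0 FPKM in Naive Vehicle. Its log2 change was -0.21 (limma adjusted p = 0.0832), -0.29 without Naive Vehicle 1 (adjusted p = 0.0173) and -0.08 without Naive Vehicle 2 (adjusted p = 0.509). Gabbr1 had 190, 199 and 207 FPKM in Cuprizone Vehicle, against 196, 232, 209 and 228 FPKM in Naive Vehicle. The log2 change of Gabbr1 was -0.12 (adjusted p = 0.0604), with a call without Naive Vehicle 1 (0.00955) or Cuprizone BTKi 8 (0.0334). Grik3, a kainate subunit, averaged 9.15 ± 0.675 FPKM in Cuprizone Vehicle and 9.87 ± 0.44 FPKM in Naive Vehicle (SD, n = 8 and 4). Grin2a, an NMDA subunit of mature neurons, averaged 16.0 ± 0.738 FPKM in Cuprizone Vehicle and 14.9 ± 1.48 FPKM in Naive Vehicle. The lowest Naive Vehicle value of Grin2a was that of Naive Vehicle 2, 13.0 FPKM. Grin2d, an NMDA subunit of interneurons, averaged 4.01 ± 0.39 FPKM in Cuprizone Vehicle and 4.47 ± 1.17 FPKM in Naive Vehicle. None of these passed the test (adjusted p = 0.238 for Grik3, 0.354 for Grin2a and 0.481 for Grin2d). Without Naive Vehicle 2 the log2 change was 0.04 for Grin2a, against 0.10 with it, and 0.03 for Grin2d, against -0.12 with it.

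The most abundant gene of each glutamate receptor class was not called in this comparison. Gria2 had 97.0, 101 and 109 FPKM at the lowest, median and highest in Cuprizone Vehicle, against 101, 88.1, 104 and 98.2 FPKM in Naive Vehicle. Grik5 had 62.6, 69.6 and 74.6 FPKM in Cuprizone Vehicle, against 70.5, 60.8, 66.6 and 61.4 FPKM in Naive Vehicle. Grin1 had 137, 156 and 163 FPKM in Cuprizone Vehicle, against 160, 147, 161 and 154 FPKM in Naive Vehicle. The groups overlapped for all of these genes. Grm5, a metabotropic receptor coupled to Gq, had 20.2, 21.6 and 22.6 FPKM in Cuprizone Vehicle, against 19.8, 23.6, 21.8 and 20.2 FPKM in Naive Vehicle. These groups overlapped too. For 23 of the 32 genes the 95% interval of the change lay within 1.2-fold either way, as it did for 55.1% of all genes. Among these genes a change of more than 1.2-fold is outside the interval, which does not show that their levels are equal.

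**Figure D4:**
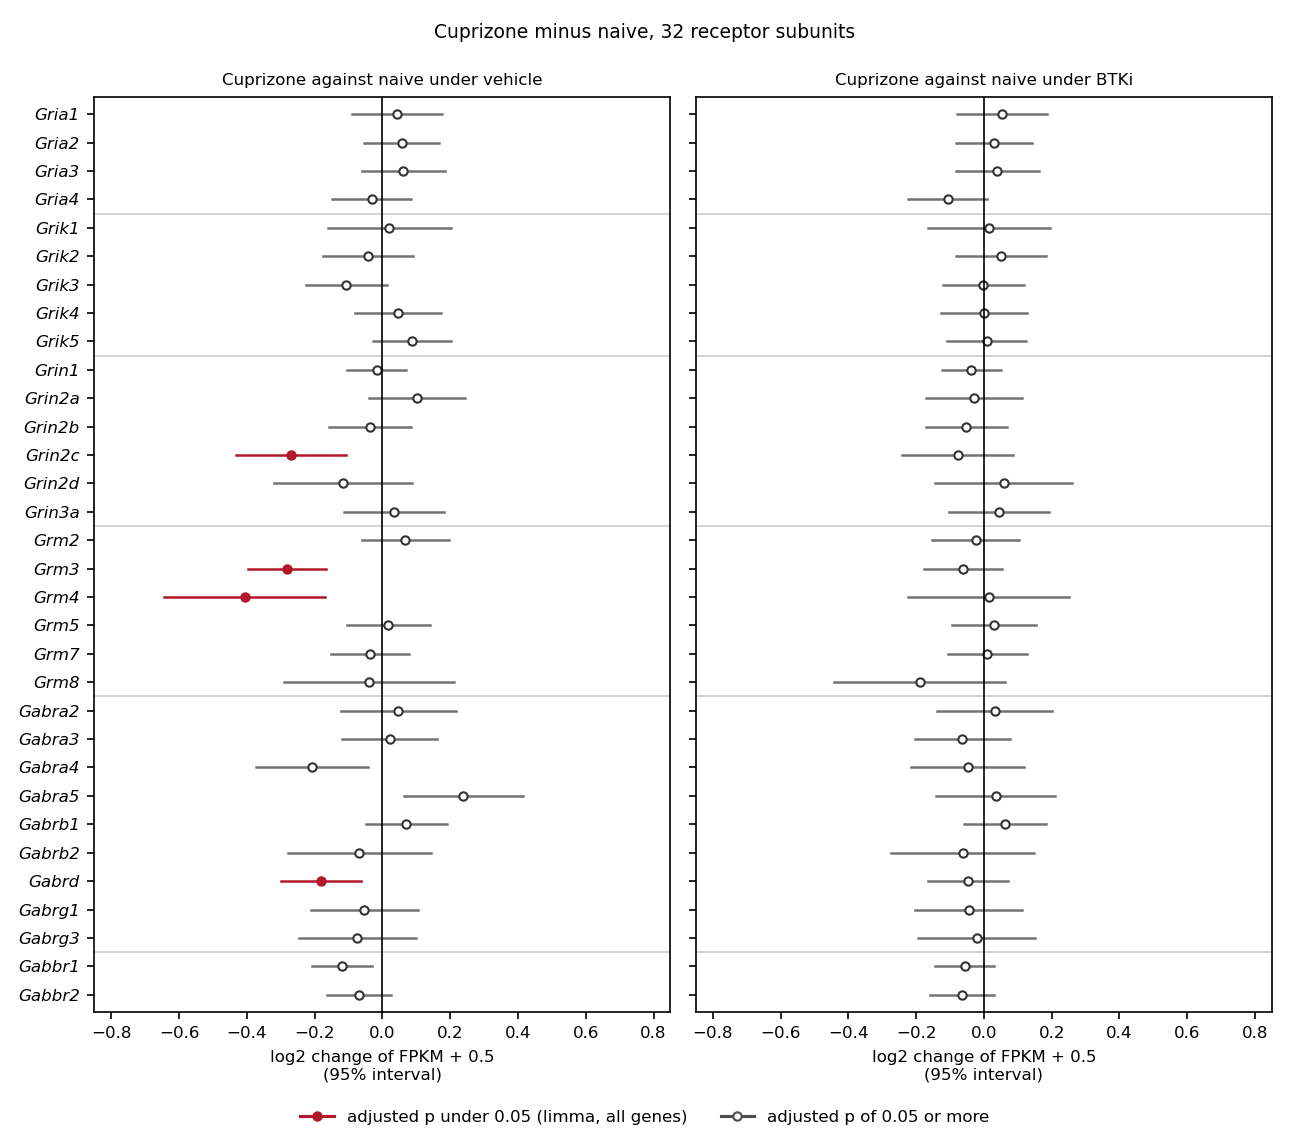
Log2 change of each receptor gene with its 95% interval, for cuprizone against naive under vehicle (left) and under BTKi (right); red marks an adjusted p under 0.05. The 4 genes called on the left all lie below 0, from -0.41 (Grm4) to -0.18 (Gabrd), and none is called on the right.

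Under BTKi, cuprizone and naive libraries gave no call among the 32 receptor genes, against 7.87% of all genes. This comparison shares no library with the one under vehicle. None reached an unadjusted p under 0.05 either, against 18.5% of all genes, and no gene had groups that did not overlap, against 7.17% of all genes. The changes ran from -0.19 to 0.06 on the log2 scale, and 30 of the 32 intervals lay within 1.2-fold, against 60.2% of all genes.

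Grm3 averaged 16.5 ± 1.24 FPKM in Cuprizone BTKi and 17.2 ± 0.493 FPKM in Naive BTKi (SD, n = 8 and 4), a log2 change of -0.06 (95% interval -0.18 to 0.05, limma adjusted p = 0.611). Its lowest, median and highest levels were 15.0, 16.0 and 18.6 FPKM in Cuprizone BTKi, against 17.4, 16.6, 17.8 and 17.1 FPKM in Naive BTKi. The groups overlapped. Gria4, an AMPA subunit found in interneurons and glial precursors, had the smallest adjusted p, 0.325. It averaged 21.0 ± 1.37 FPKM in Cuprizone BTKi and 22.7 ± 1.72 FPKM in Naive BTKi. Grm8, a group III receptor, had the largest difference, with 3.82 ± 0.518 FPKM in Cuprizone BTKi and 4.43 ± 0.727 FPKM in Naive BTKi (log2 change -0.19, adjusted p = 0.447). The values of both genes overlapped between the groups.

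Under BTKi the SD of Gabrb2, a beta subunit, among the Naive BTKi libraries was larger than the difference between the group means. It had 14.7, 20.5 and 21.8 FPKM at the lowest, median and highest in Cuprizone BTKi, against 15.3, 22.6, 21.3 and 21.6 FPKM in Naive BTKi. Its means were 19.3 ± 2.51 FPKM in Cuprizone BTKi and 20.2 ± 3.30 FPKM in Naive BTKi, and Naive BTKi 1 was the lowest of its group. Grin2d averaged 4.15 ± 0.428 FPKM in Cuprizone BTKi and 3.96 ± 0.214 FPKM in Naive BTKi. Gabrb1, a beta subunit on chromosome 5, averaged 9.98 ± 0.823 FPKM in Cuprizone BTKi and 9.51 ± 0.232 FPKM in Naive BTKi. Gabra3, an alpha subunit, averaged 30.4 ± 2.44 FPKM in Cuprizone BTKi and 31.8 ± 1.52 FPKM in Naive BTKi, and Gabbr2 averaged 73.0 ± 3.96 FPKM in Cuprizone BTKi and 76.3 ± 3.28 FPKM in Naive BTKi. None of these passed the test, and Grin2c, with 9.74 ± 0.98 FPKM in Cuprizone BTKi and 10.3 ± 0.381 FPKM in Naive BTKi, did not either.

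Averaged over vehicle and BTKi, with all 16 cuprizone against all 8 naive libraries, 3 receptor genes fell and none rose, against 17.9% of all genes called in either direction and 5.01% called lower. This average uses the same libraries as both comparisons above. The 3 were Grm3 (log2 change -0.17, SE 0.039, limma adjusted p = 0.00237), Grin2c (-0.17, SE 0.056, adjusted p = 0.0314) and Gabbr1 (-0.09, SE 0.030, adjusted p = 0.0435). Gabbr1 had 179, 202 and 211 FPKM at the lowest, median and highest in Cuprizone BTKi, against 197, 209, 214 and 208 FPKM in Naive BTKi, so its groups overlapped under BTKi as under vehicle. Grm3 was called in all 24 fits without 1 library and in 10 of 10 other alternatives. Grin2c was called in 21 of 24 and in 7 of 10 other alternatives, and its call ended without Naive Vehicle 2 (adjusted p = 0.0963), Naive BTKi 1 (0.0707) or Naive BTKi 3 (0.05002). The call of Gabbr1 ended in 13 of the 24, with adjusted p from 0.0508 to 0.117, the highest without Naive Vehicle 4. It stood in 5 of 10 other alternatives, and ended among others with the general neuron (limma adjusted p = 0.148) or striatal score (0.227) as a covariate. Gabra5 was called higher (0.18, adjusted p = 0.0326) without Naive Vehicle 2 only, and Gabrd did not pass with all libraries (-0.11, adjusted p = 0.0510), with a call in 6 of the 24 fits. Gabra4 (-0.13) and Grm4 (-0.20) did not pass either (adjusted p = 0.128 and 0.103). Without Naive Vehicle 2 these changes were -0.06 for Gabra4 and -0.09 for Grm4. An unadjusted p under 0.05 was reached by 7 of 32 genes, against 29.4% of all genes, and 29 intervals lay within 1.2-fold, against 74.0% of all genes.

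Cuprizone BTKi against Cuprizone Vehicle asked what the inhibitor does to these genes during disease. No receptor gene was called, against 0.177% of all genes (27 of 15216), and none had groups that did not overlap, against 0.131%. The changes ran from -0.16 to 0.08 on the log2 scale. For 29 of the 32 genes the interval lay within 1.2-fold, against 76.8% of all genes.

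Grm2 was the 1 gene with an unadjusted p under 0.05, against 8.79% of all genes. It had 10.8, 11.4 and 12.5 FPKM at the lowest, median and highest in Cuprizone BTKi, against 12.1, 13.0 and 14.2 FPKM in Cuprizone Vehicle. The groups overlapped between 12.1 and 12.5 FPKM. The log2 difference was -0.16 (SE 0.051, 95% interval -0.27 to -0.06, limma adjusted p = 0.286), so it did not pass over all genes. The ratio of Grm2 to Grm3 was 0.704 ± 0.050 in Cuprizone BTKi, 0.838 ± 0.052 in Cuprizone Vehicle, 0.687 ± 0.078 in Naive BTKi and 0.656 ± 0.086 in Naive Vehicle (SD), a description without a test, since the pair was picked after its values were seen. About 9.60% of Grm2 exon bases overlap Gm28111. Grm3 averaged 16.5 ± 1.24 FPKM in Cuprizone BTKi and 15.5 ± 0.951 FPKM in Cuprizone Vehicle (log2 difference 0.08, adjusted p = 0.63). Among the other large differences, Gabra5 averaged 34.4 ± 4.68 FPKM in Cuprizone BTKi and 36.2 ± 2.78 FPKM in Cuprizone Vehicle (log2 difference -0.08). Gabrb2 averaged 19.3 ± 2.51 FPKM in Cuprizone BTKi and 20.6 ± 1.88 FPKM in Cuprizone Vehicle (-0.10), and Grm4 averaged 8.02 ± 0.982 FPKM in Cuprizone BTKi and 7.51 ± 0.668 FPKM in Cuprizone Vehicle (0.08). None of these passed the test.

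In naive mice BTKi gave no call among the receptor genes either, against 0.217% of all genes. An unadjusted p under 0.05 was reached by 4 of 32, against 12.6% of all genes, and with all libraries these 4 were lower with BTKi: Gabrd, Grm4, Gabra4 and Grm3. Gabrd had 29.6, 31.7, 29.9 and 31.1 FPKM in Naive BTKi, against 33.7, 37.8, 37.7 and 31.8 FPKM in Naive Vehicle (log2 difference -0.20, limma adjusted p = 0.207). The groups of Gabrd did not overlap, nor did those of Gabrg3, a gamma subunit with at most 3.51 FPKM in Naive BTKi and at least 3.53 FPKM in Naive Vehicle. These are 2 of 32 genes lower without overlap, against 4.93% of all genes lower and 7.36% in either direction. Grm4 had 7.78, 7.63, 7.98 and 8.16 FPKM in Naive BTKi, against 8.47, 15.7, 8.14 and 9.49 FPKM in Naive Vehicle (-0.34, adjusted p = 0.286). Grm8, which did not reach it, had 3.37, 4.86, 4.93 and 4.58 FPKM in Naive BTKi, against 3.50, 3.84, 4.14 and 4.06 FPKM in Naive Vehicle (0.16, adjusted p = 0.681). Gabra4 had 24.1, 24.9, 25.4 and 26.2 FPKM in Naive BTKi, against 24.7, 38.6, 28.8 and 27.0 FPKM in Naive Vehicle (-0.22, adjusted p = 0.321). For Grm4 and Gabra4 the highest Naive Vehicle value is that of Naive Vehicle 2. Without it the differences were -0.13 for Grm4 and -0.09 for Gabra4 (adjusted p = 0.745 and 0.784), and neither reached an unadjusted p under 0.05. Gabrd and Grm3 still did, and so did Grm2 (-0.15, adjusted p = 0.519) and, higher with BTKi, Gabra5 (0.21, adjusted p = 0.519). Of the intervals, 22 lay within 1.2-fold, against 52.2% of all genes.

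**Figure D5:**
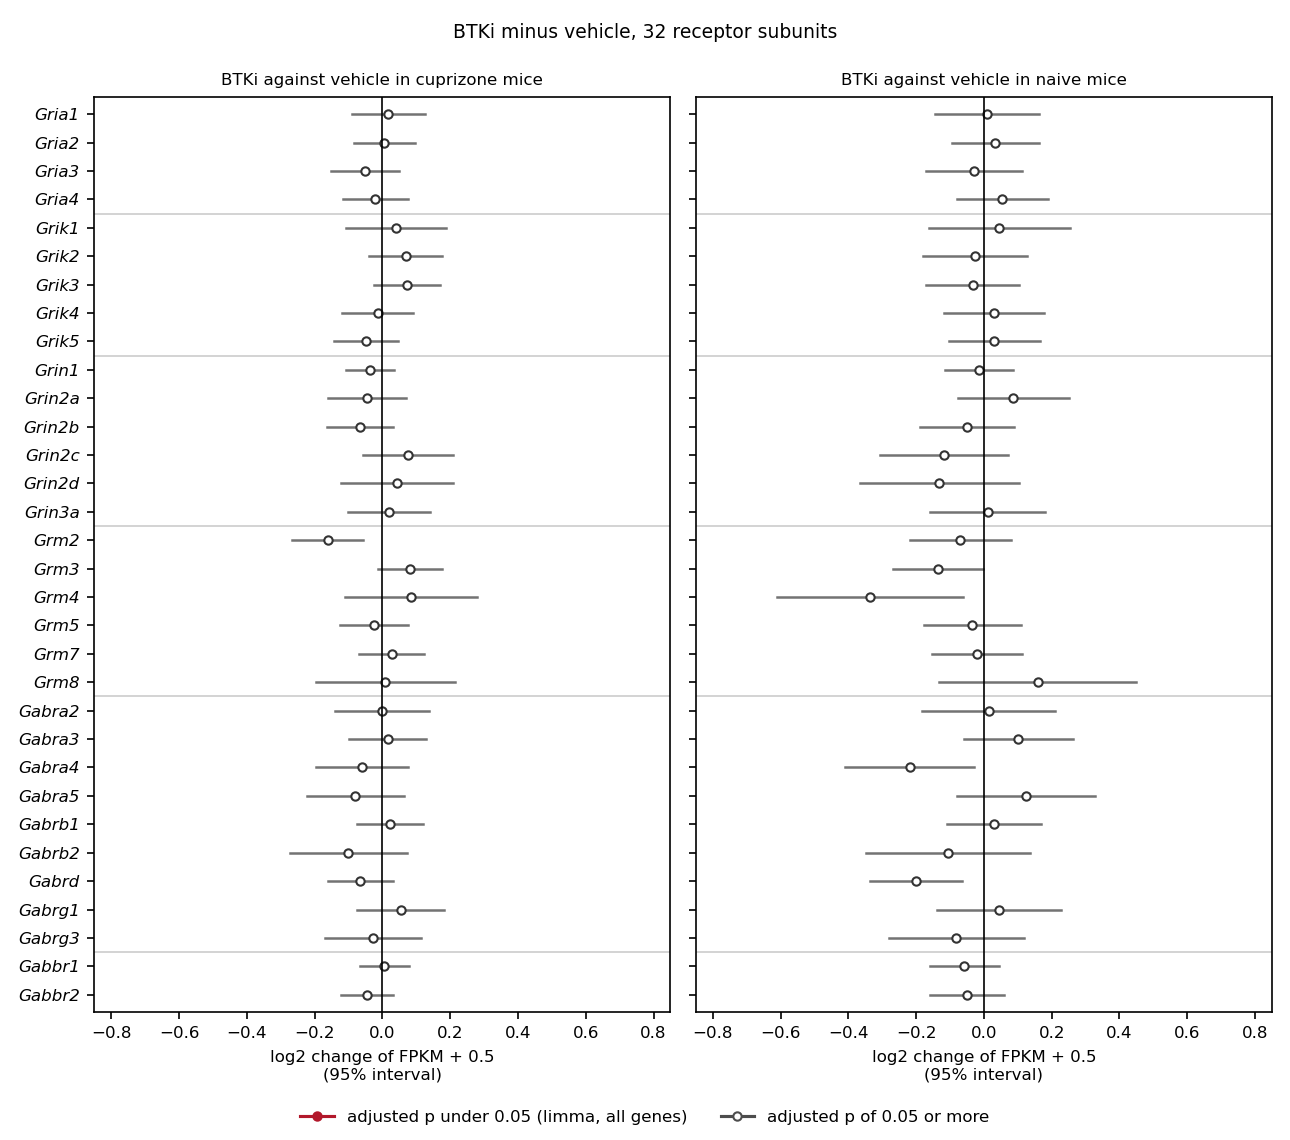
Log2 difference of each receptor gene with its 95% interval, for BTKi against vehicle in cuprizone mice (left) and in naive mice (right). No gene has an adjusted p under 0.05; the intervals are narrower on the left (n = 8 each) than on the right (n = 4 each).

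The effect of BTKi in cuprizone mice minus that in naive mice was tested as an interaction, which is the same quantity as the cuprizone effect under BTKi minus that under vehicle. No receptor gene passed, against 0.125% of all genes. An unadjusted p under 0.05 was reached by 2 of 32, against 9.74% of all genes. They were Grm3 (difference of log2 changes 0.22, SE 0.079, 95% interval 0.06 to 0.38, limma adjusted p = 0.384) and Grm4 (0.42, adjusted p = 0.428). So the lower Grm3 under vehicle was not shown to differ from its level change under BTKi. Gabra5 (-0.20), Grin2c (0.19) and Grin2d (0.17) did not pass either (adjusted p = 0.586, 0.584 and 0.696). Without Naive Vehicle 2 the difference was 0.26 for Grm3, 0.22 for Grm4, -0.29 for Gabra5, 0.11 for Grin2c and 0.03 for Grin2d. Grm4 then did not reach an unadjusted p under 0.05, Gabra5 did, and none passed (smallest adjusted p = 0.408, for Grm3). The interval lay within 1.2-fold for 17 of the 32 genes, against 39.7% of all genes.

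Other genes of the 2 transmitter systems were read from lists of transporters, enzymes, auxiliary subunits and scaffolds. Of 8 genes of the glutamate transporter list, which also holds Slc1a4, 2 rose in cuprizone against naive libraries under vehicle and none fell. Of all genes, 10.2% were called higher there. Slc1a3, the astrocytic glutamate transporter GLAST, averaged 137 ± 11.1 FPKM in Cuprizone Vehicle and 96.8 ± 13.1 FPKM in Naive Vehicle (log2 change 0.51, SE 0.066, limma adjusted p = 5.52e-06). Under BTKi it averaged 140 ± 7.51 FPKM in Cuprizone BTKi and 101 ± 4.10 FPKM in Naive BTKi (0.47, adjusted p = 3.26e-05). Slc1a4, a neutral amino acid transporter of the same family, averaged 18.7 ± 1.55 FPKM in Cuprizone Vehicle and 14.4 ± 0.562 FPKM in Naive Vehicle (0.36, adjusted p = 7.02e-05), and it was also called under BTKi (0.24, adjusted p = 0.00655). Both calls stood without Naive Vehicle 2. Slc1a2, the main astrocytic transporter GLT-1, averaged 181 ± 13.2 FPKM in Cuprizone Vehicle and 177 ± 18.2 FPKM in Naive Vehicle (0.03, adjusted p = 0.756) and was added to the text after its value was seen.

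None of the 4 GABA transporters tested or the 7 inhibitory scaffold genes was called by limma in any of the 6 comparisons, and under vehicle none of them reached an unadjusted p under 0.05. Of 8 enzymes, Aldh5a1, which degrades a product of GABA, fell under vehicle by 0.11 on the log2 scale (limma adjusted p = 0.0351, and 0.066 without Naive Vehicle 2). Abat, the GABA transaminase, rose under BTKi by a log2 change of 0.16 (adjusted p = 0.0395). Of 14 AMPA and kainate auxiliary subunits, Shisa9 (-0.27, adjusted p = 0.009) and Cacng4 (-0.40, adjusted p = 0.0166) were lower under vehicle, with adjusted p = 0.080 and 0.144 without Naive Vehicle 2. Without that library Cacng2 (stargazin, -0.16, adjusted p = 0.0295) and Cacng3 (-0.14, adjusted p = 0.0230), which traffic AMPA receptors, were called lower. Both were named after their values were seen. Of all genes, 4.82% were called lower under vehicle, and 3.21% without Naive Vehicle 2. Under BTKi no gene of this list was called with all libraries. In the fit without Naive Vehicle 2, Cacng3 passed there (-0.13, limma adjusted p = 0.0224), against 2.04% of all genes lower. In the average 2 of 14 were lower, and 4 of 14 without Naive Vehicle 2, against 5.01% and 4.68% of all genes. Cacng4 is also expressed by oligodendrocyte precursors. Of 16 excitatory scaffold genes, Dlgap1 was higher under vehicle (0.19, adjusted p = 0.0165, and 0.141 without Naive Vehicle 2). Averaged over vehicle and BTKi, Glud1, glutamate dehydrogenase, rose (0.08, adjusted p = 0.0234), and Neto2, a kainate receptor partner, fell (-0.13, adjusted p = 0.0337). No gene of these lists was called for BTKi against vehicle in cuprizone mice.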

How the data were processed

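Per the labels' protocols, RNA was isolated with a Qiagen RNeasy Micro kit and polyadenylated libraries were made with a TruSeq stranded mRNA kit. Not given in the sources used here are the aligner, the counter, the genome build, the annotation and the strand setting of counting. The authors deposited 1 FPKM value per gene ID and library in 24 columns, all of which were used. Of the 54446 IDs, 53229 carry a version found in GENCODE M21 (GRCm38), from which coordinates come, and 54409 matched a symbol. FPKM divides by the library total, so a value also depends on what other genes take. Total FPKM ran from 462521 to 496350, and 14930 to 15435 genes reached 0.5 FPKM in each library.

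Depth was read from low values, which were taken as whole multiples of 1 fragment: in 2603 low genes 87.2% of values came within 0.1 of one. The value of 1 fragment was set for each gene from its own lowest values, so part of this share holds by construction. The method was tested on simulated data. Groups follow the labels. The 68 pairs of libraries within a group differed by a log2 SD of 0.208 to 0.335, so none was an identical copy of another. Pairs across groups were not compared. Whether some libraries share an animal or RNA sample was not tested.

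Genes with a mean of at least 0.5 FPKM (15216) were tested on log2(FPKM + 0.5), which understates changes of low genes, with limma 3.58.1 in R 4.3.3 (lmFit, eBayes with trend), all 4 groups in 1 model and Benjamini-Hochberg adjustment in each of 6 comparisons. The fit was tested on simulated data with log2 changes of 0.5 and 1, of which 77% and 99% were called. Every receptor change tested here was smaller, so the simulation does not show how often such changes would be called. Tables and plots used Python 3.11.15, pandas 2.3.3, numpy 2.4.6 and matplotlib 3.10.9.

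Some receptor genes are not reported here. Members and gene lists were chosen with earlier results of these data known. Values are given for genes called in any comparison, the 10 largest changes in each cuprizone and 5 in each BTKi comparison, and the most abundant gene described of each class, with up to 4 called genes of each other list. Alternatives were pseudocounts of 0.1 and 1, no filter or a filter of 1 FPKM, median ratio and quantile scaling, a replicate block, the groups of a comparison alone, striatal or general neuron scores as covariates, and leaving out the 3 Cuprizone Vehicle libraries lowest in choroid plexus genes or each library in turn. Promoter windows are from RefSeq. Protein sequences are not used here.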

Additional observations from a re-analysis of the deposited data

Results flagged for a closer look

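The highest or lowest library of each group was compared with its neighbours for the 32 receptor genes in 4 groups. In 1 of 128 such groups (0.781%) 1 library lay far from the others by Dixon's test at 95%, while chance gives about 1 in 20. Grik3, the kainate subunit, was at 7.62 FPKM in Cuprizone Vehicle 1, against 8.90 to 9.84 FPKM in the other Cuprizone Vehicle libraries. No flag fell on Naive Vehicle 2, although 13 of the 32 genes had their highest or lowest value of all 24 libraries there. With n = 4 in each naive group the test flags only very large gaps. The low count of flags therefore does not show that outlying libraries were rare.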

How the results depend on the processing

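Of 1560 values of named receptor genes under the alternatives, 1487 kept their direction and side of the threshold, 40 lost a call, 28 gained one and 5 reversed. These values come from 45 pairs of gene and comparison, most of which were not called to begin with. Only the 4 genes called under vehicle and the 3 called in the average could lose a call. All 40 losses were of genes other than Grm3. None of the 5 that reversed was called. Under vehicle, with the striatal score as a covariate, Grin2a (0.10) became -0.0045. Grin2d (-0.12) became 0.010 with it and ran from -0.22 without Naive Vehicle 1 to 0.032 without Naive Vehicle 2. Under BTKi, with the general neuron score as a covariate, Gabra3 became 0.0099 and Gabrb2 0.10. The 4 receptor genes called in cuprizone against naive under vehicle became 1 with only the groups of the comparison and 2 with the striatal covariate (Grm3 lower, Gabra5 higher). Leaving out 1 library gave 2 (without Naive Vehicle 2) to 6 (without Naive Vehicle 1). The 3 called in the average became 1 with no filter, 5 under median ratio and 5 under quantile scaling, 1 with the striatal covariate and 1 to 5 without 1 library (1 without Naive BTKi 3, 5 without Naive Vehicle 1). The receptor count stayed 0 in the other 4 comparisons in each fit without 1 library.

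Over all genes, the 2288 calls under vehicle became 1246 with the striatal covariate and 1825 to 2392 without 1 library. The 1198 under BTKi became 702 with the general neuron covariate and 860 to 1294 without 1 library, and the 2729 of the average 2405 to 2732. The 27 calls of BTKi in cuprizone mice became 16 with no filter, 14 with the general neuron covariate, 11 without the 3 low-choroid libraries and 14 to 34 without 1 library. The 33 in naive mice became 21 with no filter, 3 with only the own groups, 8 with the striatal covariate, 19 without the low-choroid libraries and 7 to 41 without 1 library. The 19 of the interaction became 11 with the striatal and 8 with the general neuron covariate, 7 without the low-choroid libraries and 8 to 23 without 1 library. The cause was not tested.

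Whether replicate numbers pair the samples is not labelled. Deviations of 28 same-number pairs correlated from -0.274 to 0.324, and 8 were over 0.1. Pairs of different numbers were not compared, so these values do not settle it. With the number as a replicate block, 4 receptor genes were called under vehicle (Gabra5 higher, Grm3, Grm4 and Grin2c lower; adjusted p = 0.0632 for Gabrd), 1 in the average and 0 in the other comparisons, and all-gene calls were 1859 under vehicle, 1009 under BTKi, 2011 in the average, 26 and 27 for BTKi in cuprizone and naive mice and 9 for the interaction. The fewest fragments behind a tested receptor gene in the shallowest library were about 714 (Grik1), and counting error was not separated from the spread among libraries.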

Other observations

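Receptor genes that lie side by side on chromosome 5 stood at unequal places in Naive Vehicle 2. In this cluster (70751047 to 72149037, GRCm38), Gabra4 stood at 1.43 times and Gabrb1 at 1.14 times, while Gabra2 stood at 0.99 and Gabrg1 at 1.04 times. These are values of 1 library, with no test.

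The median SD within a group, on the log2 scale, over the 32 receptor genes was 0.114 in Cuprizone BTKi, 0.094 in Cuprizone Vehicle, 0.051 in Naive BTKi and 0.119 in Naive Vehicle. Over all 15216 genes tested it was 0.111 in Cuprizone BTKi, 0.113 in Cuprizone Vehicle, 0.094 in Naive BTKi and 0.109 in Naive Vehicle.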
